A study of Mus musculus with 2 samples.

Results

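The miR-101 family of microRNAs was examined in exosomes, the small membrane vesicles that cells release, shed by mouse pancreatic islets. The family was defined by name, as mmu-miR-101a-3p, mmu-miR-101a-5p, mmu-miR-101b-3p and mmu-miR-101c, written below without the species prefix. Of these 4 names 3 had an entry among the 2083 entries of the count table, 677 of which bear a mouse miRBase name and are called known miRNAs here. The family was taken up with its counts known, so its differences between the diets are given as a description. Islets came from C57BL/6 mice on a high-fat diet with 60% fat (HFD) or on a normal chow diet with 4% fat (NCD). They were kept for 1 week in medium without serum exosomes, and vesicles were spun down from supernatants taken daily. There was 1 library per diet, and how many mice or preparations it was made from is not stated. Variation between animals could thus not be measured, no p-value is given as a result, and every interval below covers counting error only.

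A miRNA is cut from a hairpin precursor and guides a silencing complex to mRNAs that pair with its seed, which is bases 2 to 8 from the 5′ end. miR-101 is best known for repressing Ezh2, the histone methyltransferase of the Polycomb repressive complex, and it is also known to repress the survival factor Mcl1 and the transcription factor Fos. In beta cells, miR-101a has been reported to rise on exposure to inflammatory cytokines. Its presence in a vesicle does not show which cell released it, and in such bulk libraries more vesicles from one cell type and more miRNA per vesicle cannot be told apart.

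The mature sequences are shown first because the family members are nearly identical and read assignment between them matters for every value that follows. They are taken from RefSeq (GRCm38.p6), are written 5′ to 3′, and have the seed in capitals.
miR-101a-3p: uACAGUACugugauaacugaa
miR-101b-3p: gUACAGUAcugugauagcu
miR-101c: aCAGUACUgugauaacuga
miR-101a-5p: uCAGUUAUcacagugcugaugc
miR-144-3p: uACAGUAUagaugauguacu
miR-101a-3p is 21 bases long and miR-101b-3p 19. As annotated, miR-101b-3p begins 1 base further upstream, so its seed is shifted by 1 base against that of miR-101a-3p. Where the 2 overlap, over 18 bases, they differ at a single base, A16G, with positions counted from the 5′ end of miR-101a-3p. Both therefore share a run of 15 bases. miR-101c is 19 bases long and lies wholly within miR-101a-3p, so a read of miR-101c could equally be a shortened miR-101a-3p. miR-144-3p, an erythroid miRNA outside the family, is shown because it shares the first 7 bases of miR-101a-3p.

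The members are encoded at separate places. The Mir101a hairpin lies at chr4:101346945-101347027 on the minus strand (GRCm38), in exon 2 of 2 of the long noncoding RNA E130102H24Rik. The Mir101b hairpin lies at chr19:29135279-29135375 on the plus strand, in intron 8 of the 9-exon protein-coding gene Rcl1, which takes part in ribosomal RNA processing. Mir101c is annotated at chr9:3038669-3038743 on the minus strand, with no host gene on that strand. None of the 3 hairpin genes had another annotated miRNA gene within 50000 bases. The Mir101a and Mir101b hairpins are printed with the mature 3p miRNA in capitals, to show how far the shared stretch reaches beyond it.
Mir101a: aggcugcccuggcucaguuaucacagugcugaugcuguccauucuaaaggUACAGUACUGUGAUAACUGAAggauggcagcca
Mir101b: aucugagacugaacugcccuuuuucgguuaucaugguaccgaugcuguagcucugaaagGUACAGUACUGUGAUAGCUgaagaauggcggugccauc
The longest run common to both hairpins is 20 bases, AAAGGUACAGUACUGUGAUA. The base just before miR-101a-3p in its own hairpin is the same G that opens miR-101b-3p. A read that starts at that G and ends within the shared run would match both hairpins.

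miR-101a-3p, the abundant member, had 1088 counts in HFD and 722 counts in NCD. This was 538 counts per 1000000 counts of the library (CPM; 95% Poisson interval 507 to 571) in HFD and 299 CPM (277 to 321) in NCD. Its ratio of HFD over NCD was 1.80 (exact counting interval 1.64 to 1.98), under the 2-fold rule of size used here. It ranked 81st among known miRNAs in HFD and 99th in NCD. The deposited table gave it 538 and 299 TPM, which here are the same quantity as CPM.

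miR-101b-3p, the rarer paralog from the Rcl1 intron, differed far more. It had 499 counts in HFD and 38 counts in NCD, or 247 CPM (226 to 270) in HFD and 15.7 CPM (11.1 to 21.6) in NCD. The HFD level was about that of a medium-abundance miRNA at rank 113 of the known miRNAs, against rank 245 in NCD. It was 15.7-fold higher in HFD (11.3 to 22.5), the second highest ratio among the 207 known miRNAs that reached 100 counts in either library. Only miR-1a-3p, a striated muscle miRNA, had a higher one in that set, at 20.8-fold (19.4 to 22.3).

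miR-101c had 1 count in HFD and 0 counts in NCD. The 95% Poisson intervals were 0.0125 to 2.76 CPM in HFD and 0 to 1.53 CPM in NCD. No difference was thus detectable at this depth. The fixed mark of 3 counts, drawn in place of the 0 in NCD, would be 1.24 CPM. No entry of the table carried the name miR-101a-5p, the opposite arm of the Mir101a hairpin, and it is given as not detected. The same held for the 5p arm of Mir101b. All family counts therefore belonged to the 3p side, and nearly all to miR-101a-3p and miR-101b-3p.

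**Figure D1:**
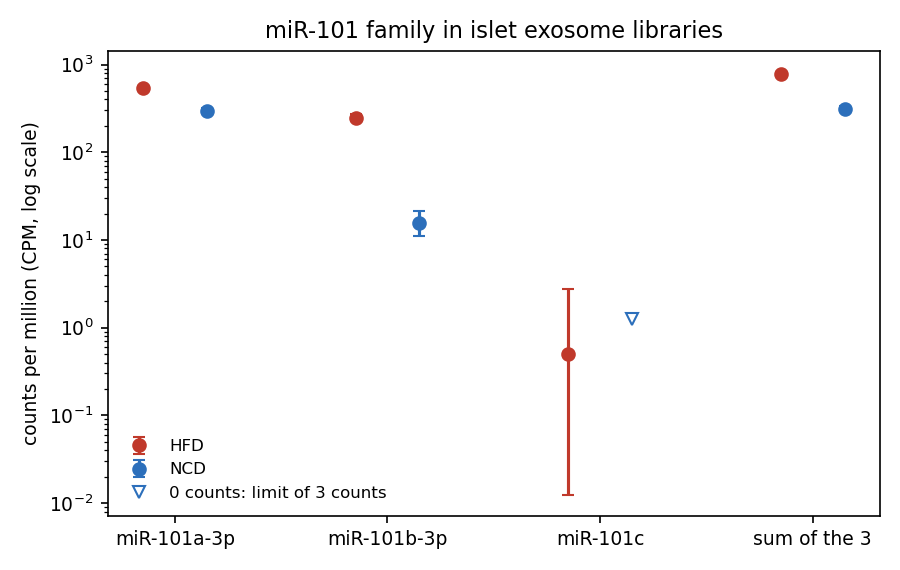
Level of each miR-101 family member with an entry, and of their sum, in CPM on a log axis, in the HFD and the NCD library (1 library each). Bars are 95% Poisson intervals. The open triangle is a fixed mark of 3 counts, drawn where a member had 0 counts. miR-101b-3p sits at 247 CPM in HFD and 15.7 CPM in NCD, a wider gap than that of miR-101a-3p at 538 and 299 CPM.

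Because the 3p members may share reads, their counts were also summed. If reads that match several members were divided between them, the sum does not depend on that division; if they were counted for each member, such reads enter the sum more than once, and which applies was not tested. It was 1588 counts in HFD and 760 counts in NCD, or 786 CPM (748 to 825) in HFD and 314 CPM (292 to 338) in NCD. The summed family was 2.50-fold higher in HFD (2.29 to 2.73), a log2 ratio of 1.32. Without miR-101b-3p the sum had a ratio of 1.80. Of the 471 CPM by which the summed family was higher in HFD, 240 CPM belonged to miR-101a-3p and 231 CPM to miR-101b-3p. The rare paralog thus made up nearly as much of the difference as the abundant one. On the log2 scale the family ratio came to 0.73, within 2-fold, once the median ratio of miRNAs of like GC content, described last, was subtracted. That figure goes with the median for miR-101a-3p, 0.59, applied to the whole sum. The median for miR-101b-3p was 0.48.

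The balance between the paralogs differed between the libraries. miR-101b-3p took 31.4% of the family's counts in HFD (exact binomial interval 29.1 to 33.8) and 5.0% in NCD (3.56 to 6.80). There were 2.18 counts of miR-101a-3p for each count of miR-101b-3p in HFD, and 19.0 in NCD. The ratio of miR-101b-3p to miR-101a-3p was 8.71 times higher in HFD (6.16 to 12.6). This quantity compares miRNAs within a library, so no choice of library scaling can change it. It does depend on how reads that match both members were assigned, and that part was not tested.

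**Figure D2:**
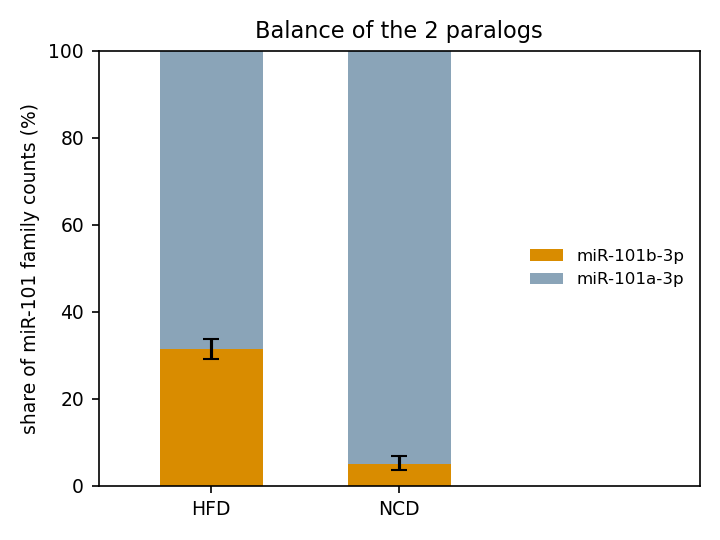
Share of the miR-101 family counts, in percent, taken by miR-101b-3p and miR-101a-3p in the HFD and the NCD library. Error bars are 95% exact binomial intervals of the miR-101b-3p share, which is 31.4% in HFD and 5.0% in NCD; miR-101c, with 1 count in all, is too small to see.

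The 2-fold rule was met by 1 of the 2 measured members, those that reached 10 counts in either library. Among all 387 known miRNAs so measured, 25.3% passed 2-fold upward in HFD and 9.56% downward. Nothing is read from the members' count against that background, since the family was chosen with it in view. The median log2 ratio over those 387 miRNAs was 0.33, so the typical miRNA stood somewhat above 0 on this scale. The log2 ratio of miR-101a-3p was 0.85 and that of miR-101b-3p was 3.89. In the authors' deposited table the log2 fold changes were 0.70 for miR-101a-3p and 3.82 for miR-101b-3p, after TMM scaling. That table also lists 3.22 for miR-101c, a value which rests on 1 count against 0. The authors' deposited table gives an FDR of 0.0118 for miR-101a-3p and 2.61e-35 for miR-101b-3p, but that test took the spread between replicates as given, since none was measured.

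**Figure D3:**
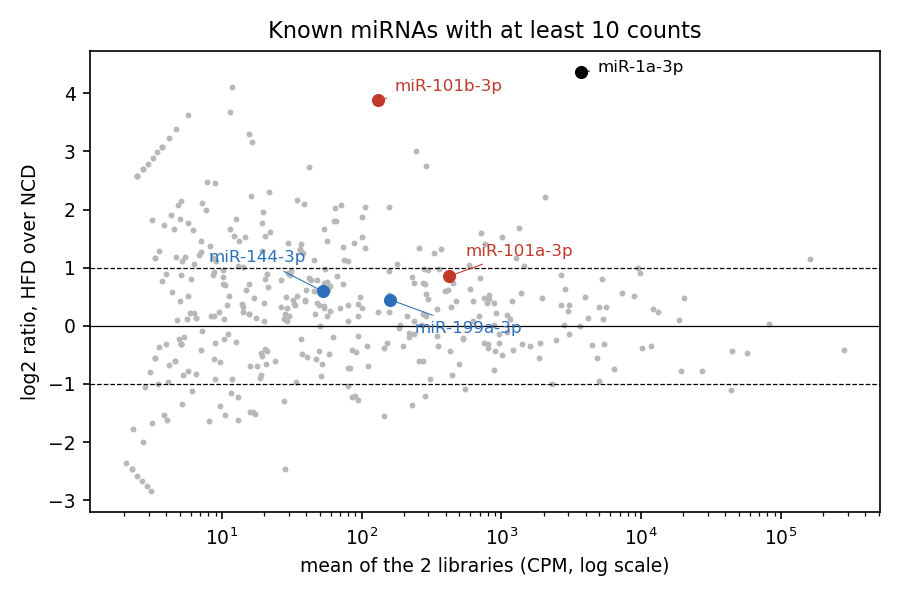
log2 ratio of HFD over NCD against the mean CPM of both libraries (log axis) for the 387 measured known miRNAs; dashed lines mark 2-fold. miR-101b-3p lies at 3.89, apart from miR-101a-3p at 0.85 and from the seed relatives miR-144-3p at 0.59 and miR-199a-3p at 0.45.

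The level of miR-101b-3p was set beside that of known miRNAs equally abundant in either library. There were 46 other known miRNAs with 26 to 57 counts in NCD, that is within 1.5 times the 38 counts of miR-101b-3p. Their HFD counts ran from 7 to 128 with a median of 36.0, and 0 of the 46 reached the 499 of miR-101b-3p. Seen from the other side, 36 other known miRNAs had 343 to 743 counts in HFD. Their NCD counts ran from 98 to 1800 with a median of 544, and 0 of the 36 were as low as 38. Both views rest on the same counts as the ratio and restate it as a level.

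Near-identical sequence did not usually go with a difference of this size. Among known miRNAs that reached 100 counts and have a RefSeq sequence, 25 pairs of unlike sequence shared a run of at least 12 bases, a choice made after the values were seen. Their log2 ratios differed by a median of 0.42. The pair miR-101a-3p and miR-101b-3p differed by 3.04, the widest of the 25, and only 4 pairs differed by 1 or more. The next was miR-30a-3p and miR-30e-3p, which share 17 bases and differed by 1.53. miR-30a-3p was 2.51-fold higher in HFD (2.26 to 2.80), and miR-30e-3p had a ratio of 0.864 (0.796 to 0.939). Among the 12 pairs that share at least 15 bases the median difference was 0.44. Several pairs have a member in common, so the 25 are not independent.

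**Figure D4:**
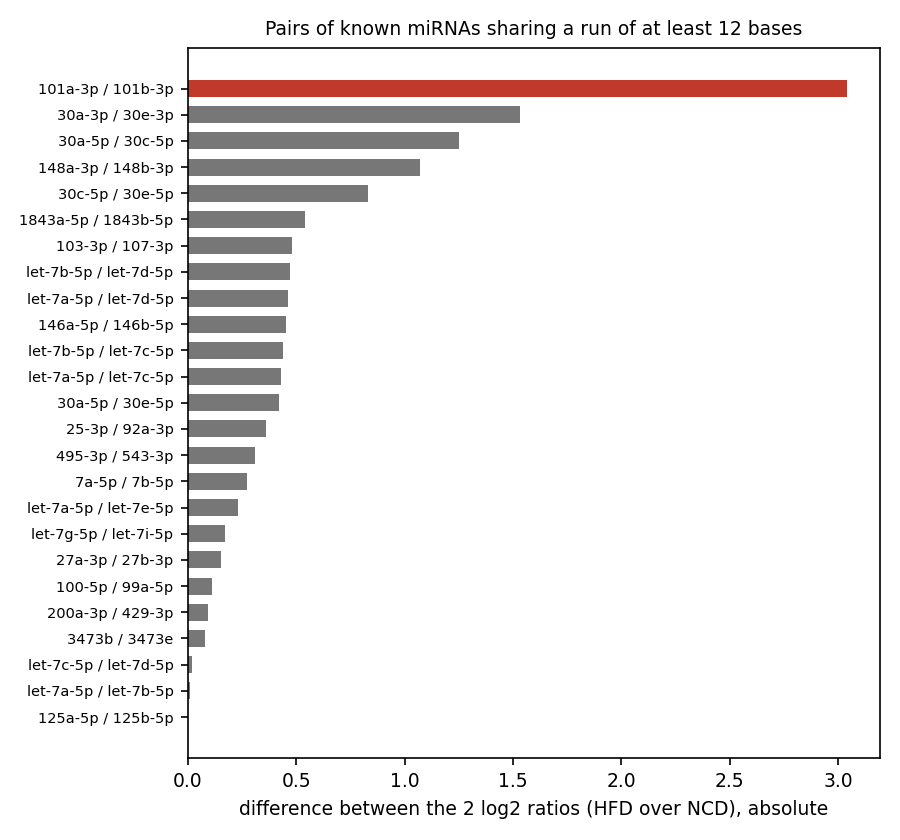
Absolute difference between the log2 ratios (HFD over NCD) of 25 pairs of known miRNAs that share a run of at least 12 bases, ordered by size. The miR-101a-3p and miR-101b-3p pair, in red, is at 3.04, and the next pair, miR-30a-3p and miR-30e-3p, at 1.53.

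miRNAs outside the family whose first 8 bases hold the letters ACAGUA, which both miR-101a-3p and miR-101b-3p also hold there, were few. miR-144-3p had 129 counts in HFD and 102 counts in NCD, a ratio of 1.51 (1.16 to 1.98). miR-199a-3p and miR-199b-3p have the same mature sequence and the same counts, 371 in HFD and 324 in NCD, a ratio of 1.37 (1.18 to 1.59), so they are a single measurement listed under both names. All 3 entries were within 2-fold, with a median log2 ratio of 0.45. The wide ratio of miR-101b-3p was thus not seen in these 3 entries. miR-144-3p is cut from the same precursor as miR-144-5p, which had a ratio of 1.15 (1.03 to 1.29) and was named after its values were seen; its log2 ratio was below 0, at -0.05, under median-of-ratios scaling.

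Other miRNAs reported to repress Ezh2 were described as a group. Of 6 listed, 4 were measured, of which 1 was at least 2-fold higher, 0 were lower and 3 were within 2-fold. That share is close to the 25.3% higher among all 387 measured known miRNAs. Their median log2 ratio was 0.41, against 0.33 over all measured known miRNAs. miR-26a-5p, the most abundant, had 13308 CPM in HFD and 10952 CPM in NCD, a ratio of 1.22 (1.19 to 1.24). Its close relative miR-26b-5p had a ratio of 1.44 (1.35 to 1.54). miR-217-5p, a miRNA of acinar cells, was 3.59-fold higher in HFD (2.72 to 4.78), whereas miR-214-3p, a miRNA of mesenchymal cells, was 1.88 times lower, with 212 CPM in HFD and 400 CPM in NCD. miR-214-3p passed 2-fold under TMM scaling (log2 ratio -1.06) and median-of-ratios scaling (-1.17), and just reached it when the totals left out the 5 most abundant miRNAs. miR-138-5p had 2 counts in HFD and 0 counts in NCD, and miR-124-3p 1 count in HFD and 2 counts in NCD. By abundance, the family's 786 CPM in HFD and 314 CPM in NCD stood below miR-26a-5p in both libraries.

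miRNAs reported to respond to cytokines in beta cells, the setting in which miR-101a has been studied, formed a second group. Of 5 listed, 4 were measured, and 3 were at least 2-fold higher with 0 lower, against 25.3% higher and 9.56% lower over all 387 measured known miRNAs. Their median log2 ratio was 1.36, against 0.33 over all. miR-30b-5p, which was studied alongside miR-101a, had 105 counts in HFD and 49 counts in NCD, a ratio of 2.56 (1.81 to 3.68). miR-29a-3p had a ratio of 3.02 and miR-146a-5p, which is induced by NF-kappaB signalling, of 2.67. miR-21a-5p, at 1.74 (1.70 to 1.79), was the member closest to miR-101a-3p. No entry carried the name miR-34a-5p. With 1 library per diet and lists chosen with results known, the group's median is a description of these libraries only.

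The known miRNAs closest to miR-101a-3p in log2 ratio, over these 2 libraries and among those that reached 100 counts, were miR-221-3p, miR-148a-5p, miR-181a-5p, miR-410-3p and miR-185-5p. Their ratios ran from 1.78 for miR-181a-5p (1.66 to 1.92) to 1.83 for miR-148a-5p (1.44 to 2.34). The counting intervals of all 5 held the 1.80 of miR-101a-3p, which ranked 50th of 207 by ratio. They were picked for that nearness, so this is no support for the value. Among those same miRNAs that reached 100 counts, the neighbours of miR-101b-3p by ratio were miR-1a-3p above it and miR-486a-3p below it. The 20.8-fold of miR-1a-3p lies inside the interval of miR-101b-3p. miR-486a-3p stood at 8.12-fold (6.75 to 9.85) and was named after its values were seen. Its opposite arm miR-486a-5p, also named after its values were seen, had a ratio of 0.741 (0.734 to 0.747), the other direction.

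Markers of other cell types also differed between the libraries, and their part in the family's ratios was not tested. Of 11 markers 6 were at least 2-fold higher in HFD and 0 lower, beside the 25.3% and 9.56% of all 387, and 0 were at 0 counts in either library. The islet markers miR-375-3p and miR-7a-5p summed to 86739 CPM in HFD and 84001 CPM in NCD, so islet miRNA was plentiful in both. The hepatocyte marker miR-122-5p stood at 241944 CPM in HFD and 321158 CPM in NCD, which is more than the islet markers. Its far rarer opposite arm miR-122-3p, added after its values were seen, went the other way. It had 128 counts in HFD and 34 counts in NCD, a log2 ratio of 2.09. The striated muscle markers miR-1a-3p and miR-133a-3p summed to 7166 CPM in HFD and 366 CPM in NCD. Erythroid markers, miR-451a and miR-144-3p, summed to 12747 CPM in HFD and 6838 CPM in NCD. The more abundant red cell miRNAs miR-486a-5p and miR-486b-5p, added after their values were seen, had ratios of 0.741 and 0.722, the other direction. The acinar markers miR-216a-5p and miR-217-5p summed to 120 CPM in HFD and 36.8 CPM in NCD, and the leukocyte markers miR-142a-3p and miR-223-3p to 162 CPM in HFD and 70.7 CPM in NCD. Other leukocyte miRNAs, added after their values were seen, did not all follow. Their log2 ratios were 0.57 for miR-142a-5p, 0.32 for miR-150-5p, -0.03 for miR-223-5p and -0.72 for miR-342-5p, but 1.36 for miR-342-3p. miR-216a-5p and miR-142a-3p came within 2-fold under TMM and median-of-ratios scaling and with a pseudocount of 10 CPM, and miR-216a-5p also when the totals left out the 5 most abundant miRNAs.

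Base composition moved with the ratios and is given beside them. Of the 207 known miRNAs that reached 100 counts, 87.0% had a mature sequence. Their median log2 ratio was 0.58 where GC content was under 35%, 0.49 from 40% to under 45%, and -0.38 at 60% or more. miR-101a-3p has 33.3% GC, and miR-101b-3p has 42.1%. Among 24 other miRNAs within 5 percentage points of miR-101a-3p, 5 had a ratio at least as high, and its log2 ratio exceeded the median of its window by 0.26. miR-1a-3p had no sequence there and is left out of this comparison. Among 61 others within 5 percentage points of miR-101b-3p, 0 had a ratio as high, the closest being miR-206-3p at a log2 ratio of 2.74, and the excess over the median was 3.41 on the log2 scale. Among the 207, only miR-1a-3p had a higher ratio than miR-101b-3p, so the 0 of 61 was fixed in advance. Whether base composition had a part in the ratio of either member was not tested. Mature length was also tabulated, since miR-101b-3p is annotated at 19 bases. The 6 miRNAs of 20 bases or fewer, miR-101b-3p among them, had a median log2 ratio of -0.40. The 1 of the 6 that was at least 2-fold higher was miR-101b-3p itself. The 107 miRNAs of 22 bases had a median of 0.28.

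**Figure D5:**
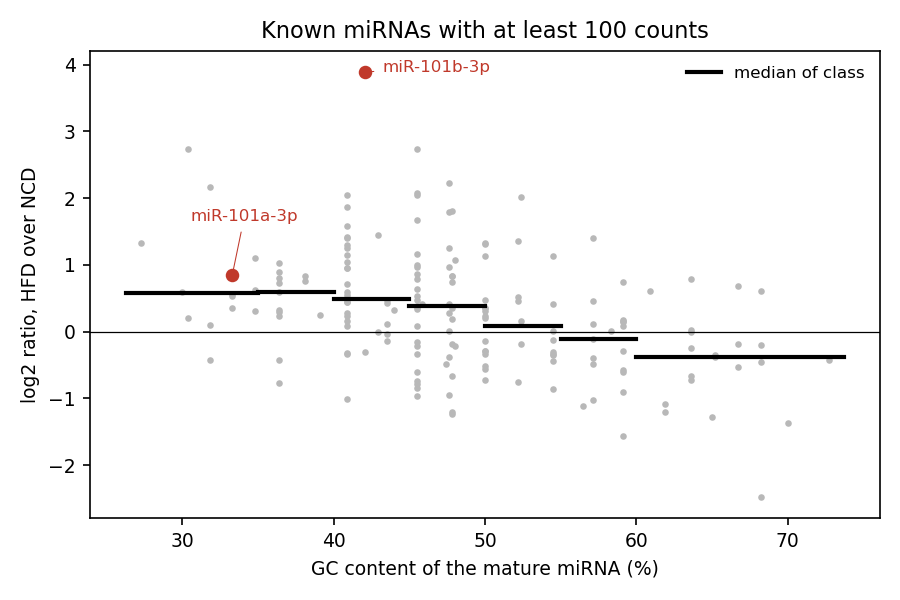
log2 ratio of HFD over NCD against the GC content of the mature miRNA, in percent, for the known miRNAs that reached 100 counts and have a RefSeq sequence; black lines are medians of GC classes. miR-101a-3p (0.85) lies close to the median of its class, 0.58, and miR-101b-3p (3.89) far above that of its class, 0.49.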

How the data were processed

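Small RNA of exosomes from cultured mouse islets was sequenced in 1 library per diet. The deposited counts are whole reads per miRNA entry and sum to 2020831 for HFD and 2417589 for NCD. The deposited TPM values equal counts per 1000000 counts of the table (CPM), with no length scaling. Per the file headers, the authors also deposited the log2 fold change of each entry with its p-value and FDR. edgeR 4.0.16 gave the same values by its exact test after TMM scaling when the coefficient of variation was set to 0.1, and no p differed by more than 6.55e-15. Per the submitters' processing notes, reads were handled on GRCm38. For the aligner and for reads that match several miRNAs, the method was not given in the sources used here.

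From the counts, CPM and ratios of HFD over NCD were computed with 95% exact counting intervals (Poisson for CPM, Clopper-Pearson for shares and ratios, Fisher's noncentral hypergeometric for the ratio of ratios). They cover counting error only, since no molecular identifiers are named. log2 ratios used a pseudocount of 1 CPM. An entry was measured if it reached 10 counts in either library and called at 2-fold, a rule of size and not a test. The calculation was tested on simulated data drawn with counting error only, so that test says nothing about spread between animals or libraries. Members, lists and rules were chosen with earlier results of these data known. The miRNAs named were the members, the lists, the cell type markers, the opposite arms and the 5 known miRNAs closest in ratio to miR-101a-3p; others are marked as chosen after their values were seen. Sequences are from RefSeq (GRCm38.p6), which matched 87.9% of the 677 known entries, and host genes from GENCODE M21 (GRCm38). Alternatives were TMM factors, median-of-ratios size factors (DESeq2 1.42.0), the deposited TPM, 2 other totals, 2 other pseudocounts, other count minimums, merged members and centring on miRNAs of like GC content. Both median-of-ratios size factors came out at 1, so values under that scaling compare the counts without correction for the library totals.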

Additional observations from a re-analysis of the deposited data

How the results depend on the processing

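miR-101b-3p stayed past 2-fold under every alternative run, with a log2 ratio of 3.32 with a pseudocount of 10 CPM and 3.41 after subtraction of the median of miRNAs of like GC content, against 3.89 in the report. miR-101a-3p stayed within 2-fold and above 0 under every alternative run. Its log2 ratio of 0.85 became 0.70 under TMM scaling, 0.59 under median-of-ratios scaling and 0.26 after the GC subtraction. The summed family, at 1.32, became 1.17, 1.06 and 0.73 under the same alternatives. The median-of-ratios size factor was 1 for both libraries, so that setting left the difference between the library totals uncorrected. The 2 scalings shift all known miRNAs with at least 100 counts by a median of -0.15 (TMM) and -0.26 (median of ratios). Each applies a single factor to a whole library, so by construction the members shifted along with the others, and this says nothing about their stability. The count of members past 2-fold was 1 under every alternative run, including the sum of miR-101c with miR-101a-3p. The 135 known miRNAs past 2-fold became 63 with a pseudocount of 10 CPM, 251 with a minimum of 1 count and 51 with a minimum of 100. The median of the miRNAs that repress Ezh2, 0.41, became 0.26 under TMM scaling, 0.15 under median-of-ratios scaling and 0.32 when the totals left out the 5 most abundant miRNAs, and that of the seed relatives, 0.45, became 0.19 under median-of-ratios scaling. The cause of the pseudocount's effect on low counts lies in its construction; the cause of the GC trend was not tested.

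The 38 counts of miR-101b-3p in NCD limit the precision of its ratio. No ratio is given for miR-101c, with 1 count against 0, or for miR-101a-5p, which has no entry; with no count minimum miR-101c stayed under 2-fold. No paired analysis was possible because there is 1 library per diet.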
